A study of Mus musculus with 249 samples.

Results

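The freezing experiment compared the point at which microdissected nuclear material was frozen in multiplex-GAM of mouse embryonic stem cells. It comprised 23 of the libraries of the series, 12 frozen early and 11 frozen late. They were chosen by the shared start of their library names, and the arm was taken from the sample titles. All 23 libraries came from 46C-ES cells, a line of the 129/Ola strain with a GFP reporter in the Sox1 gene. They were cut as cryosections of 220 nm, with 4 profiles listed for each tube. The paper estimates that some dissected profiles miss the nucleus, so the number of nuclear profiles in each tube is unknown. In the early arm, the caps that held the dissected profiles were kept at -20 °C overnight before lysis. In the late arm, the tubes were kept at -20 °C overnight after 4 h of lysis at 50 °C and heat inactivation, before library preparation. Apart from that step, the stated protocols were the same, with whole genome amplification over 25 cycles, although the protocol texts are cut off at their end. Late libraries lay in columns 1 and 2 of the plate and early libraries in columns 3 and 4, as the ends of the library names read. The labels do not say in words that these are plate positions. Freezing point and plate column thus cannot be told apart. Libraries are named here by plate row and column. The labels do not say whether the libraries came from separate cultures, so p-values measure the spread between these tubes, which may be technical.

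Genome architecture mapping (GAM) infers which loci lie near each other in the nucleus from how often they are found in the same thin nuclear slice. A nuclear slice holds a thin section of each chromosome territory that it crosses, so the DNA of a library falls into stretches of neighbouring loci, separated by stretches that the slice missed. In multiplex-GAM, several slices share a tube, and lysis, amplification and library preparation act on very small amounts of DNA. The readout of a library is a list of 40 kb windows of the mouse assembly mm9, each called positive (detected) or not. The table holds no read counts, so the depth of each library is unknown, and no interval based on depth is given. No expression was measured, so markers of stem cells cannot be read from these data. As 46C cells carry 1 X and 1 Y chromosome, windows on these chromosomes have a single copy to be caught, while autosomal windows have a pair.

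Libraries frozen early detected more of the genome than libraries frozen late. Coverage is given as positive windows in percent of all 68162 windows listed. It was 28.01% ± 8.23 (SD, n = 12) after early freezing and 16.8% ± 7.34 (SD, n = 11) after late freezing. Early libraries ranged from 12.2% in library B3 over a median of 28.7% to 39.3% in library D3. Late libraries ranged from 7.33% in library E2 over a median of 16.0% to 31.3% in library B1. The arms overlapped: 11 of 12 early libraries lay above the late mean, 7 of 11 late libraries but only 2 of 12 early libraries were under 20%, and late B1 exceeded 8 of the early libraries. The difference of 11.3 percentage points had p = 0.00284 in a two-sided permutation test, and an adjusted p of 0.0437 over 121 tests, which were 11 measures in each of the 11 protocol contrasts of the series. The early arm had the highest mean coverage of the 20 protocol groups of the series and the late arm ranked 10 of 20.

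**Figure D1:**
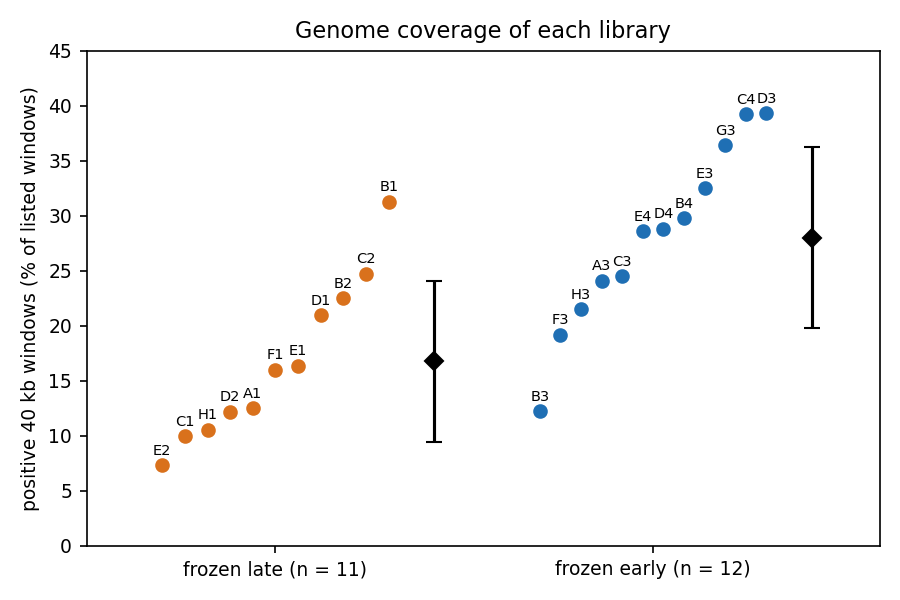
Each point is a library, placed by the percent of listed 40 kb windows that were positive and labelled by its plate row and column. Diamonds with bars show the mean and SD of each arm, 16.8% ± 7.34 after late freezing and 28.01% ± 8.23 after early freezing.

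With any single library left out, early libraries still had the higher mean, by 10.2 to 12.7 points, and the adjusted p lay between 0.0206 and 0.0600. It stayed under 0.05 when the library left out was late B1, D1, B2 or C2, or early B3, F3 or H3, and rose above 0.05 when it was any of the other 16. When libraries were permuted only within plate rows, early libraries led by 10.5 points (adjusted p = 0.0697, exact permutation test). Row G holds no late library, so early G3 drops out of that test, and without G3 alone the difference was also 10.5 points (adjusted p = 0.0600). By medians they led by 12.7 points (adjusted p = 0.0679). Between the plate columns of an arm, coverage was 16.8% (n = 7) and 16.7% (n = 4) in the late arm, and 26.2% (n = 8) and 31.6% (n = 4) in the early arm. None of 22 comparisons of columns within an arm reached an unadjusted p of 0.05 in exact permutation tests, the lowest being 0.121. With 4 to 8 libraries to a column, such tests can miss sizeable differences. They compare columns within an arm only, so they do not separate freezing point from plate column. In 3 other groups, the protocol text matched that of the late arm over the opening part that was compared. Of these, the libraries of the PCR test with 25 cycles had a coverage of 24.8% ± 5.50 (SD, n = 3). Coverage was 23.3% ± 5.18 (SD, n = 10) in the unstained libraries of the cresyl violet test and 16.7% ± 6.43 (SD, n = 18) in those of the eosin test. These groups were prepared in other experiments, so they were not tested against either arm.

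More of the genome was also recovered over the arm as a whole. At least 1 library detected 95.2% of the 61816 autosomal windows after early freezing and 86.2% after late freezing. With 11 early libraries in place of 12, the early value lay between 94.3% and 95.0%. At least 3 libraries detected 74.4% of autosomal windows in the early arm and 31.3% in the late arm, and 11 early libraries gave 65.6% to 72.1%. Autosomal windows seen in 6 or more libraries numbered 8169 (13.2%) in the early arm and 497 (0.804%) in the late arm, and 11 early libraries gave 7.54% to 11.1%.

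Most of the added coverage lay in runs of adjacent windows. A mean run of positive windows spanned 156 kb ± 26.95 (SD, n = 12) after early freezing and 119 kb ± 25.0 (SD, n = 11) after late freezing. Early libraries ranged from 107 kb in B3 to 190 kb in G3, late libraries from 87.6 kb in C1 to 173 kb in B1. The difference of 36.6 kb had p = 0.00361 and an adjusted p of 0.0485 in the permutation test. The adjusted p lay between 0.0206 and 0.0600 with a library left out, and under 0.05 only without late B1 or B2 or early B3 or C4.

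Windows in runs of a single window, 40 kb long, made up 2.93% ± 1.54 of listed windows in the early arm and 2.77% ± 1.41 in the late arm, a difference of 0.157 points with an adjusted p of 0.860. Runs of 10 to 24 windows, 400 to 960 kb long, held 7.77% ± 2.48 of listed windows in the early arm and 3.63% ± 2.43 in the late arm. This was the largest gap of the 5 length classes, at 4.13 points, and had an adjusted p of 0.00645 over 15 tests of run classes, which were chosen after the data were seen. Runs of 25 windows or more, at least 1000 kb long, held 3.37% ± 2.33 of listed windows against 1.02% ± 1.20, with an adjusted p of 0.0103. An early library had on average 61.9 such runs, from 12 to 121, and a late library 20.7, from 1 to 81. As a share of a library's own positive windows, single windows made up 10.9% in the early arm and 17.3% in the late arm, and runs of 25 windows or more 11.0% and 5.17%. Over the libraries of the other experiments, mean run length was higher by 2.90 kb for each point of coverage.

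**Figure D2:**
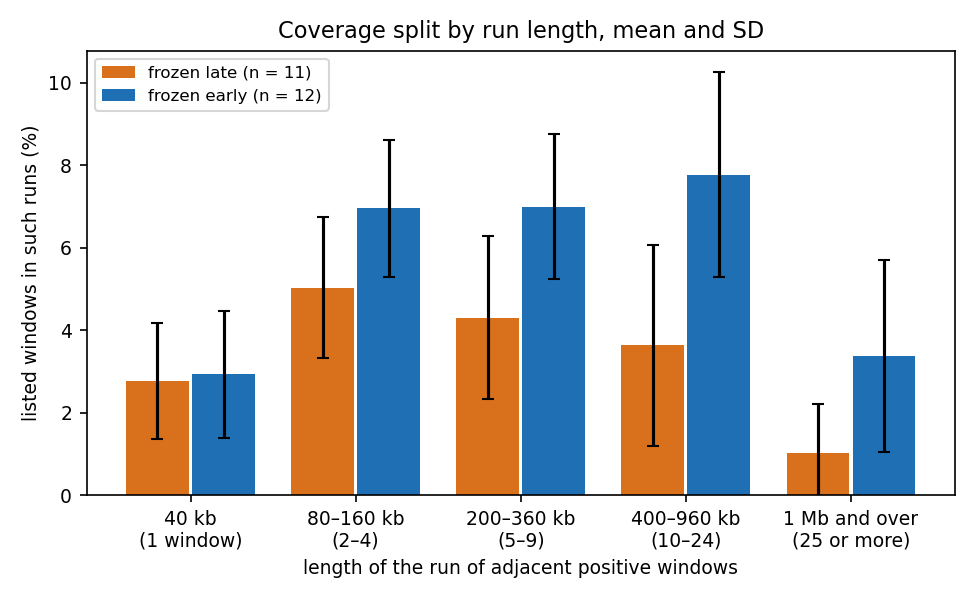
Bars show the mean percent of listed windows that lay in runs of each length, with the SD over libraries (bars of SD are cut at 0). The arms lay closest for single windows, at 2.77% and 2.93%, and lay furthest apart for runs of 400 to 960 kb, at 3.63% and 7.77%.

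The longest run of any library was found in early library D3, where all 316 windows of chr16:36880001-49520000 were positive. This stretch of 12.6 Mb holds 81 starts of protein-coding genes, among them Gsk3b, a kinase of the Wnt pathway, Gap43, a growth cone protein of neurons, and Lsamp, a neuronal adhesion molecule. The same stretch was on average 20.3% positive in the other early libraries, with a highest value of 42.7%, and 11.4% positive in the late libraries, with a highest value of 26.6%. Chromosome 16 as a whole was 75.4% positive in D3, the highest percent of any autosome in the 23 libraries. No other library of the experiment held a run over 4.96 Mb, and the longest run in any library of the other experiments was 8.64 Mb. The stretch was singled out after its length was seen.

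Positive windows also adjoined each other more often in the early arm, but by an amount that did not pass the threshold when adjusted over all 121 tests. The neighbour share, the percent of positive windows with a positive adjacent window, was 89.1% ± 4.59 (SD, n = 12) after early freezing and 82.7% ± 5.63 (SD, n = 11) after late freezing, with p = 0.00732 and an adjusted p of 0.0600 in the permutation test. Adjusted over the 22 tests of coverage and neighbour share alone, a smaller family than the planned 121 tests, its p was 0.0437. It was above 88% in 10 of 12 early libraries and in 2 of 11 late libraries. The exceptions were early B3 at 79.2% and C4 at 80.2%, and late B2 at 89.0% and B1 at 91.5%. Gap fill, the percent of windows between a pair of positive neighbours that were positive themselves, was 85.4% ± 2.72 against 80.9% ± 5.18, with p = 0.0120 and an adjusted p of 0.0728.

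Early C4 and late C2 stood apart from the others of their arms. Library C4 had 7.76 isolated positive windows per 100 listed windows, where the other early libraries had 1.92 to 2.89, and C2 had 6.59, where the other late libraries had 1.17 to 3.21. C4 had the second highest coverage of the early arm, 39.2%, and C2 the second highest of the late arm, 24.7%. Without both libraries, the early mean of coverage was higher by 11.0 points with an adjusted p of 0.0553, the difference in mean run length was 37.7 kb with an adjusted p of 0.0458, and that in neighbour share was 6.27 points with an adjusted p of 0.0503. This alternative was added after the data were seen.

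Read against coverage, no difference in how positive windows were arranged passed the test. A straight line of neighbour share on coverage was fitted over the libraries of the other experiments, and residuals from it averaged -1.49 points in the early arm and 2.50 points in the late arm, so the difference changed sign, with p = 0.215 in the permutation test. The residual difference in mean run length was 3.87 kb, with p = 0.705. At the highest coverage of an early library, the straight line gave a neighbour share of 101%, which no library can reach. For neighbour share, 7 of 12 early and 9 of 11 late libraries lay above the line, the median early residual was 0.271 points, and C4 had the lowest at -20.8 points. Calls were also compared over distance. The correlation between the calls of windows 1 Mb apart on a chromosome was 0.292 ± 0.0477 (SD, n = 12) in early libraries and 0.251 ± 0.0461 (SD, n = 11) in late libraries, with p = 0.0491 and an adjusted p of 0.180. Early means were higher at each of 9 distances from 40 kb (0.630 against 0.582) to 20 Mb (0.0919 against 0.0733), and no distance passed after adjustment over the 9, the lowest adjusted p being 0.151.

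**Figure D3:**
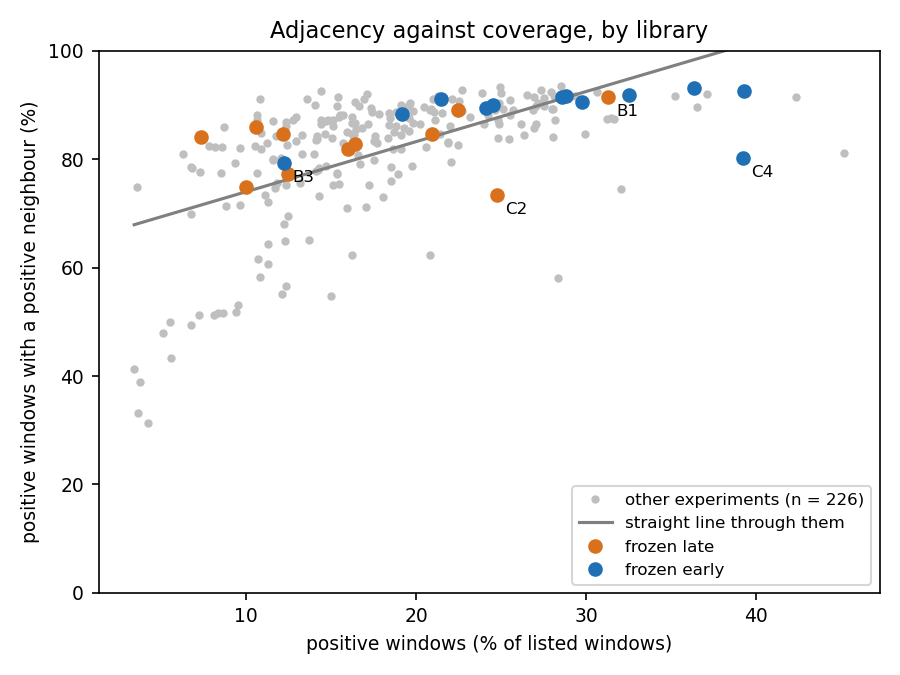
The percent of positive windows with a positive neighbour is plotted against coverage for the libraries of the other experiments (grey, with the fitted straight line), 11 late libraries and 12 early libraries. Early C4 lies at 80.2% and late C2 at 73.4%, below early D3 (92.7%) and early C3 (90.1%), the libraries of the freezing experiment nearest to them in coverage.

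Each of the 19 autosomes was detected more fully in the early arm, by 5.17 to 17.5 percentage points. The widest gaps were on chromosome 11, with 35.3% ± 11.2 of windows positive in early libraries and 17.9% ± 16.6 in late libraries, and on chromosome 14, with 31.7% ± 14.8 and 14.7% ± 11.9. On chromosome 1, the longest chromosome, the values were 29.004% ± 15.9 and 22.5% ± 11.1. To set each chromosome against the rest of its library, the percent of the other autosomes was subtracted from that of each chromosome in each library. Of the 21 chromosomes tested, 2 (9.52%) then passed in permutation tests adjusted over chromosomes, and neither was an autosome. The lowest unadjusted p of an autosome was 0.117.

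The number of autosomes caught in a library had a higher mean in the early arm, but the difference did not pass the adjusted threshold. An autosome was counted as sampled when at least 10% of its windows were positive. Early libraries sampled 17.6 ± 2.35 of 19 autosomes (lowest 11, median 18, highest 19) and late libraries 13.3 ± 4.41 (lowest 7, median 13, highest 19), with p = 0.00866 and an adjusted p of 0.0616 in the permutation test. All 19 were sampled in 5 early and 3 late libraries. Late H1 and E2 sampled 7 and 8 autosomes. In E2, 9 autosomes had under 5% of their windows positive. Relative to its mean, detection varied over autosomes with a coefficient of variation of 43.7% ± 16.0 in early libraries and 57.5% ± 20.3 in late libraries, with p = 0.0852 and an adjusted p of 0.252. With sampling counted from 20% of windows, the early arm sampled 7.43 more autosomes and the adjusted p was 0.0283, and with sampling counted from 5% it sampled 1.79 more with an adjusted p of 0.226.

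**Figure D4:**
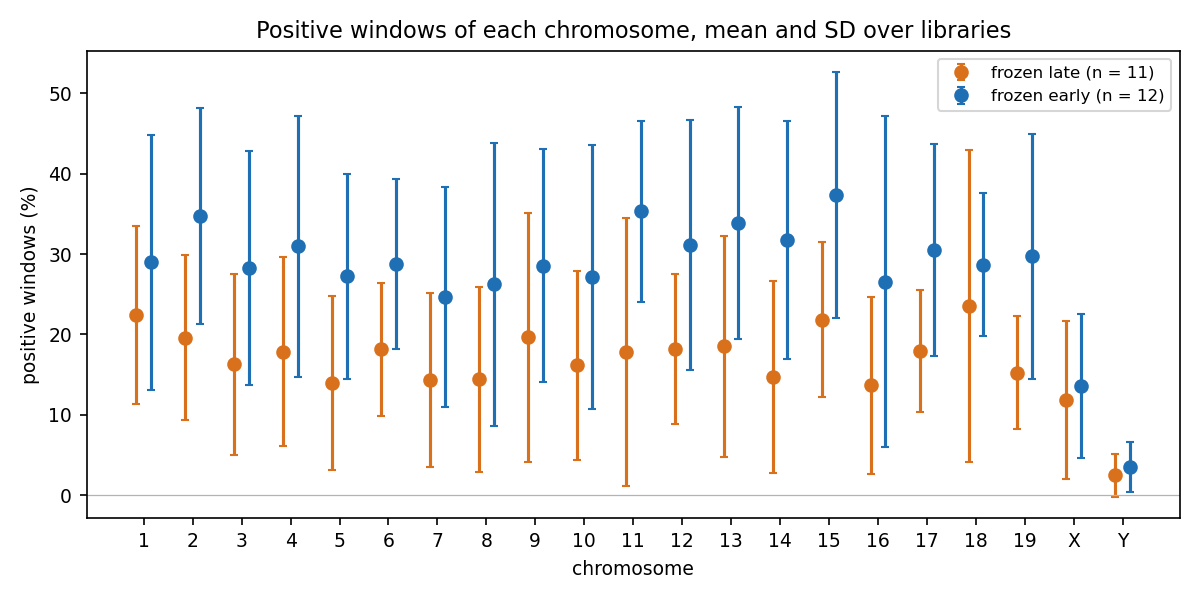
Points show the mean percent of windows positive on each chromosome, with the SD over libraries. The early mean lies above the late mean on all 19 autosomes, while the means of the X chromosome, 13.6% and 11.8%, and of the Y chromosome, 3.56% and 2.49%, lie close together.

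The chromosomes that passed were X and Y, both of which are present in 1 copy. The X chromosome was 13.6% ± 8.92 positive (lowest 0.336%, median 12.5%, highest 29.9%) in early libraries and 11.8% ± 9.80 (lowest 0.0240%, median 12.5%, highest 28.6%) in late libraries. Autosomes were 29.9% ± 8.67 and 17.7% ± 7.62 positive. The X chromosome thus lay 16.4 points below the autosomes in early libraries and 5.84 points below in late libraries, and the difference of -10.5 points had p = 0.00211 and an adjusted p of 0.0426 over the 121 tests. The Y chromosome, of which 398 windows are listed, lay 26.4 points below the autosomes in early libraries and 15.2 points below in late libraries (adjusted p = 0.0393 over 21 chromosomes).

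A gap in points widens with coverage, and on other scales the X chromosome did not pass. As a ratio to the autosomal percent, X detection averaged 0.424 ± 0.262 in early libraries and 0.596 ± 0.458 in late libraries, with p = 0.277. Against the percent that a single copy would give if both autosomal copies were caught independently, X detection lay 2.85 points below in early libraries and 2.48 points above in late libraries, with p = 0.0908. The residual from the line on coverage differed by -5.81 points, with p = 0.0692. With a ratio in place of the difference, 0 of 21 chromosomes passed, the lowest adjusted p in the permutation tests being 0.934, against 2 with an unadjusted p under 0.05 on the scale of points. With a library left out, the adjusted p of the X gap in points lay between 0.0181 and 0.0594, and it rose above 0.05 without late A1, D1, B2, C2 or D2 or early D3, E3, F3, B4 or C4.

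The X chromosome was caught unevenly in both arms. In 5 libraries, early B3 and F3 and late C1, H1 and E2, under 1% of its windows were positive. In late D1 and A1, X windows were detected more often than autosomal windows, at 28.6% against 21.1% and at 14.4% against 12.7%. No early library showed this. Detection was above the expectation for a single copy in 3 of 12 early libraries and in 6 of 11 late libraries.

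**Figure D5:**
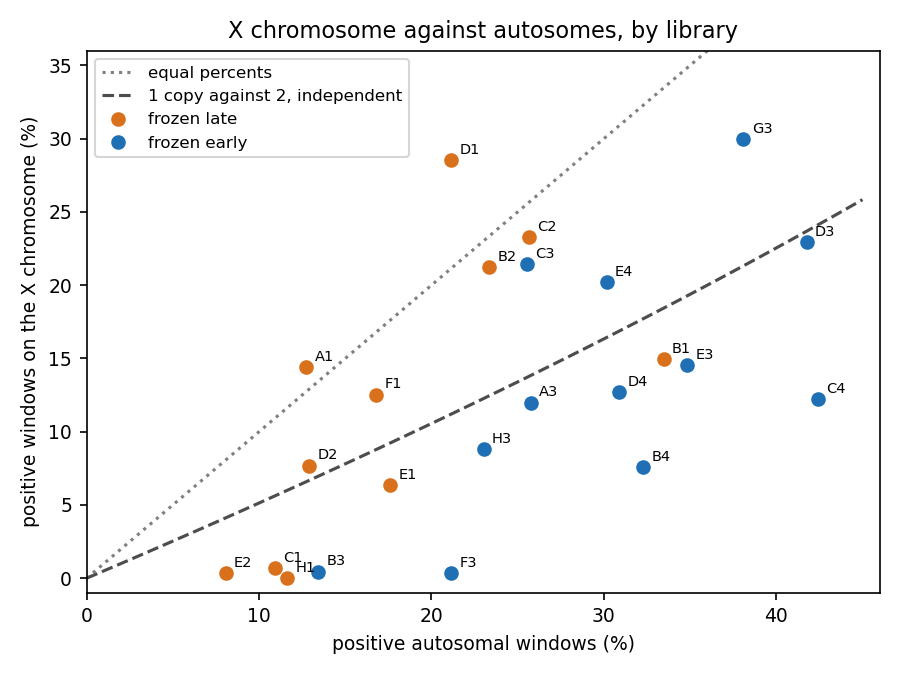
Each point is a library, placed by the percent of positive windows on autosomes and on the X chromosome. The dotted line marks equal percents and the dashed line a single copy set against a pair of independent copies. The X chromosome is below 1% in 2 early and 3 late libraries, and early libraries extend to higher autosomal percents, up to 42.4%.

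Windows with gene starts were detected more often than others in both arms, and the difference in this excess between the arms did not pass the adjusted threshold. Of 61816 autosomal windows, 15127 held the start of a protein-coding gene. These were 32.9% ± 9.07 positive in early libraries and 18.9% ± 8.16 in late libraries, while windows without a gene start were 28.99% ± 8.59 and 17.3% ± 7.47 positive. The excess was 3.90 ± 1.87 points (lowest 1.601, median 3.46, highest 7.77) in the early arm and 1.67 ± 1.499 points (lowest -0.666, median 1.98, highest 3.85) in the late arm. It was above 0 in 12 of 12 early and in 9 of 11 late libraries, late A1 and H1 being the exceptions. The difference of 2.23 points had p = 0.00457 and an adjusted p of 0.0553. As a ratio of percents, the excess was 1.14 ± 0.0793 and 1.11 ± 0.113, with p = 0.351. As a residual from the line on coverage, the excess was higher by 1.20 points in early libraries, with p = 0.0930, and by medians of the arms by 1.47 points.

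Detection was also compared by base composition. Autosomal windows were ranked by GC content and divided into 10 classes of equal size. In the class with the lowest GC content (mean 36.2%), 28.4% of windows were positive in early libraries and 16.6% in late libraries, and in the class with the highest (mean 49.9%), 34.8% and 19.3%. The early arm was thus 1.71 times the late arm at the low end and 1.81 times at the high end. Between the lowest and the highest of 10 such classes by gene starts within the surrounding 1 Mb, detection went from 27.7% to 34.6% in early libraries and from 16.6% to 18.8% in late libraries. Positive windows had a GC content above that of all autosomal windows by 0.304 ± 0.260 points in early libraries and 0.178 ± 0.305 points in late libraries, with an adjusted p of 0.596. That difference of 0.127 points became 0.270 as a residual from the line on coverage (p = 0.0350, adjusted p = 0.137) and 0.000817 by medians. The classes were not tested.

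At the level of single windows, no locus passed the adjusted threshold. Of 58871 windows positive in at least 3 of the 23 libraries, 0 (0.0%) had an adjusted p under 0.05 in Fisher's exact test, and the lowest adjusted p was 0.804. With 12 and 11 libraries, a lone window positive in every library of an arm and in none of the other would have an adjusted p of 0.0435 over these windows, so a single locus could pass only when the arms were fully separated. An unadjusted p under 0.05 was reached by 2761 windows, of which 2664 (4.53% of those tested) were positive more often in early libraries and 97 (0.165%) less often. With a library left out, between 1516 and 3845 windows had such a p. The share of positive libraries was higher in the early arm for 73.2% of the windows tested, and the median difference was 14.4 points. Libraries were also grouped by tertile of coverage in a stratified exact test. In it, 1060 of the 58871 windows had an unadjusted p under 0.05. Of the 1060, 598 were positive more often in early libraries than the tertiles predicted. That test rests on unequal strata, as the lowest tertile held 1 early and 7 late libraries and the highest 6 early and 1 late. The tertiles were cut from coverage, which comes from the same calls and itself differed between the arms.

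The windows with the lowest p are given as a description. In chr1:68480001-68520000, inside Erbb4, which encodes a receptor tyrosine kinase for neuregulins, 9 of 12 early and 0 of 11 late libraries were positive, and the window overlaps no exon. The same counts, with p = 0.000337 in Fisher's exact test, were found in chr2:32800001-32840000, which holds the start of Lrsam1, a ubiquitin ligase, and all of Rpl12, a ribosomal protein gene, and Slc2a8, a glucose transporter gene. They were found again in chr2:33600001-33640000, inside Fam125b and overlapping 2 of its exons, in chr3:151280001-151320000, which overlaps no protein-coding gene, and in 6 further windows that tied with these. These 4 windows were positive in 14.2% to 19.5% of the libraries of the other experiments. In the opposite direction, chr12:55040001-55080000, which overlaps 1 exon of the transcription factor gene Npas3, was positive in 0 of 12 early and 7 of 11 late libraries (p = 0.00135). An intronic window of Gria2, which encodes a subunit of AMPA-type glutamate receptors, chr3:80560001-80600000, was positive in 0 early and 6 late libraries (p = 0.00458). A window at the start of Uggt1, which encodes a sensor of glycoprotein folding, chr1:36280001-36320000, and one with no protein-coding gene, chr2:137920001-137960000, were each positive in 1 early and 7 late libraries (p = 0.00942). These counts were found in 4 windows in all, of which the first in genome order are named. None of these passed the adjustment, at an adjusted p of 0.804 each.

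A few windows were positive whatever the freezing point. The 6 windows positive in all 23 libraries were the mitochondrial genome and 5 nuclear windows, which are named here because of their values. The nuclear windows were chr2:98480001-98520000, chr9:3000001-3040000, chr9:35080001-35120000 and the adjacent pair chr11:3040001-3080000 and chr11:3080001-3120000, both of which overlap Sfi1, a centrosome gene. All 6 were positive in at least 93.8% of the libraries of the other experiments as well. No window was positive in every early library and in no late library, or the reverse.

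Detection was also read in 4 regions of interest, and the early mean was higher in each, as it was on each of the 19 autosomes. From 85 to 95 Mb of chromosome 11, early libraries were 41.7% ± 21.2 positive (lowest 10.0%, median 49.6%, highest 71.2%) and late libraries 11.6% ± 12.6 (lowest 0.0%, median 5.60%, highest 30.8%). The arms overlapped, but 6 of 12 early and 0 of 11 late libraries had at least 50% of the 250 windows. In this region 64 of 247 windows tested (25.9%) had an unadjusted p under 0.05 and were positive more often in early libraries, against 4.53% over all windows. Adjacent windows of a run are caught together, so these windows are not independent of each other.

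From 80 to 90 Mb of chromosome 4, early libraries were 32.1% ± 17.9 positive (median 35.4%) and late libraries 11.9% ± 12.3 (median 6.80%), and 31 of 230 windows tested (13.5%) had such a p. Early C3 and F3 each had 0.400% of these windows, below all late libraries. From 49 to 54 Mb of chromosome 6, which holds the HoxA cluster of body-axis regulators, the values were 31.4% ± 23.3 (median 23.6%) and 20.9% ± 18.8 (median 16.8%), and 6 of 123 windows tested (4.88%) had such a p, while 1 was positive less often in early libraries with a p under 0.05. From 30 to 39 Mb of chromosome 3, which holds the pluripotency gene Sox2, they were 24.0% ± 20.0 (median 20.4%) and 17.4% ± 21.2 (median 5.33%), and 0 of 210 windows had such a p, while 2 of the 210 had a p under 0.05 and were positive less often in early libraries, against 0.165% over all windows. Early E3, H3 and D4 detected none of the 225 windows of that region, while early C4 detected 67.1% of them and late B1 60.9%.

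Sets of genes with known roles in stem cells were followed through the window that holds their start. For genes of pluripotency, the share of positive libraries was higher in the early arm for 11 of 16 genes, with a median difference of 14.8 points, against 73.9% and 15.2 points over all autosomal windows with a gene start. None of the 15 tested had an unadjusted p under 0.05 in Fisher's exact test, against 5.91% of all autosomal windows with a gene start that were tested. The window of Esrrb, a nuclear receptor of the pluripotency network, was positive in 6 of 12 early and 1 of 11 late libraries, the widest gap of the set (p = 0.0686, adjusted p = 0.839 in Fisher's exact test over all windows). The window of Tfcp2l1, a transcription factor of naive pluripotency, had the widest gap in the other direction, with 1 of 12 and 5 of 11. For Pou5f1, the central pluripotency factor, the counts were 4 of 12 and 4 of 11, for Sox2 4 of 12 and 3 of 11, and for Nanog 6 of 12 and 3 of 11. Klf5, positive in 0 early and 2 late libraries, fell below the minimum of 3 libraries for the test.

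For regulators of differentiation, which are low in stem cells, 15 of 16 genes had a window, Sox1 having no match in the annotation. The share of positive libraries was higher in the early arm for 13 of the 15, with a median difference of 24.2 points, where all autosomal windows with a gene start gave 73.9% and 15.2 points. An unadjusted p under 0.05 was reached by 2 of 15, both more often positive in early libraries, where 829 of all 14397 autosomal windows with a gene start that were tested (5.76%) did so. These were Gata4, a regulator of endoderm and heart, and Hoxd13, a regulator of limb patterning, each positive in 5 of 12 early and 0 of 11 late libraries (p = 0.0373, adjusted p = 0.804). Olig2, a factor of the oligodendrocyte lineage, had the lowest difference, with 1 of 12 and 2 of 11.

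For housekeeping genes, the early arm was higher for 6 of 12 and lower for 6 of 12, with a median difference of 1.52 points, against 73.9% higher and 15.2 points over all autosomal windows with a gene start. Of the 10 tested, 2 had an unadjusted p under 0.05, 1 in each direction, against 5.91% of all such windows tested. Gapdh, an enzyme of glycolysis, was positive in 8 of 12 early and 2 of 11 late libraries (p = 0.0361), and Ldha, which interconverts pyruvate and lactate, in 1 of 12 and 6 of 11 (p = 0.0272), both with an adjusted p of 0.804. Hprt and Pgk1, which lie on the X chromosome, were each positive in 1 of the 23 libraries and were not tested. These sets are of 12 to 16 windows each, and no set was tested against another.

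Long neuronal genes span many windows, so a slice can catch a part of the gene. Over 12 such genes, the mean percent of the gene's windows that were positive was higher in early libraries for 11, with a median difference of 11.0 points. For comparison, chromosomes 1 to 19 and X were divided into 1455 adjoining stretches of 45 windows, about the median size of these genes. This step was added after the data were seen. The early arm was higher for 86.4% of the stretches, with a median difference of 11.2 points. An unadjusted p under 0.05 in the permutation test was reached by 3 of the 12 genes, which were Nrxn3, Cntnap2 and Lrp1b, each with the higher mean in early libraries, where 16.2% of the stretches did so in the same test. The genes were chosen with earlier results known, so their p-values were not adjusted over the list. Nrxn3, a synaptic adhesion gene of 1.61 Mb and 41 windows, had the widest gap, with 34.6% ± 32.8 (lowest 0.0%, median 34.1%, highest 95.1%) in early and 9.53% ± 15.6 (lowest 0.0%, median 2.44%, highest 43.9%) in late libraries. At least 50% of its windows were positive in 5 of 12 early and in 0 of 11 late libraries, while 4 early and 5 late libraries detected none. Cntnap2, a neuronal adhesion gene of 2.24 Mb, was 26.2% ± 24.7 and 6.86% ± 11.0 positive, and 2 early and 6 late libraries detected none of it. Dmd, the dystrophin gene on the X chromosome, was the exception, with 12.8% ± 19.5 in early and 15.2% ± 19.7 in late libraries. For all 12 genes, the SD over early libraries was larger than the gap between the arms.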

How the data were processed

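Multiplex-GAM libraries were described from the table of window calls that the authors deposited, whose values are 0 or 1 for each 40 kb window and library, in no other unit. Per the study's methods and the labels, the authors aligned reads to mm9 with Bowtie2 (version 2.1 in the submitters' processing notes), removed duplicates and called a window positive at 4 reads or more with GAMtools. Only libraries that passed their quality control are in the table. Read counts were not used here, and the part of sequencing depth in any difference was not tested. The freezing experiment held 23 of the 249 libraries of the series, and 226 belonged to other experiments. All 249 columns matched a sample label, 0 were left over, and 0 pairs of libraries held identical values.

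From the calls, 11 measures were computed for each library with NumPy 2.4.6 and pandas 2.3.3. Arms were compared by the difference of means in two-sided permutation tests (100000 resamples, or exact where an arm held fewer than 10 libraries, SciPy 1.17.1 for Fisher's exact test), with Benjamini-Hochberg adjustment over 121 tests, over windows or over 21 chromosomes, at a threshold of 0.05. Windows were tested if positive in at least 3 of 23 libraries. GC content and genes came from the NCBIM37 reference, whose chromosome lengths matched the table for 21 of 21 chromosomes, and from GENCODE vM1. Scripts were tested on simulated data. The regions of interest were those displayed in the study. The libraries, gene sets, regions and tests were chosen with earlier results of these data known. The rule for windows took the 4 with the lowest p in each direction, ties going to the larger difference and then to genome order. The rule for genes took, in each set, the widest gap in either direction, and Pou5f1, Sox2, Nanog, Cntnap2 and the genes of the longest run were added to it. Alternatives were medians, permutation within plate rows, other window filters and scales, residuals on coverage and leaving out each library.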

Additional observations from a re-analysis of the deposited data

How the results depend on the processing

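The labels give no replicate numbers shared by the arms, so the arms were matched only by plate row. The direction of the differences in coverage, mean run length and the X gap held under each alternative, but their adjusted p was close to the threshold. The coverage difference in points no longer passed with medians (12.7), within plate rows (10.5) or without early C4 and late C2 (11.0). Mean run length no longer passed with medians (46.4 kb), within plate rows (33.4 kb) or as a residual from the line on coverage (3.87 kb). The X gap in points no longer passed with medians (-11.0), within plate rows (-11.3), over windows positive in at least 25 libraries of the series (-11.1), as a residual (-5.81), against a single copy (-5.33), without early C4 and late C2 (-8.91) or as a ratio (-0.172). Autosomes sampled passed when counted from 20% of windows (7.43) and not from 5% (1.79, adjusted p = 0.226). As residuals from the line on coverage, the differences changed sign for neighbour share (-3.99), isolated windows (-0.424), gap fill (-5.69), autosome spread (2.36), autosomes sampled (-1.14) and autocorrelation (-0.00852), and with medians for isolated windows (-0.133). The cause was not tested. Of 21 chromosomes, 0 passed over windows positive in at least 25 libraries of the series, as ratios, or without early C4 and late C2. No window passed under any setting, but the lowest adjusted p that a lone window could reach was 0.0435 as reported, 0.0468 and 0.0235 with a minimum of 1 and 6 positive libraries, 0.0156 with 3 windows joined, 1.0 within tertiles of coverage, 0.159 without early C4 and late C2, and 0.0893 to 0.166 with a library left out, so the last 3 say nothing about a lone locus. Tests within plate rows leave out early G3, as row G holds no late library.

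With each library left out in turn, the range was 10.2 to 12.7 points for coverage, 33.4 to 41.97 kb for mean run length, -11.8 to -9.19 points for the X gap, 5.46 to 7.30 points for neighbour share, -0.283 to 0.538 per 100 windows for isolated windows, 3.52 to 5.25 points for gap fill, -17.4 to -10.3 for autosome spread, 3.68 to 4.91 for autosomes sampled, 0.0338 to 0.0504 for autocorrelation, 0.0682 to 0.187 points for GC content, 1.88 to 2.45 points for windows with gene starts, 0 for windows passed and 0 to 2 for chromosomes passed. Isolated windows changed sign without early C4 and without late E2. The neighbour share passed without late B1, early B3 or early C4, gap fill without late B1, autosomes sampled without late B1, B2 or C2 or early B3, and windows with gene starts without late B1 or F1 or early A3, F3 or D4. Fewer than 2 chromosomes passed without late A1, C1, D1, E1, F1, H1, D2 or E2 or early A3, D3, E3, G3, B4, C4, D4 or E4. Precision was limited by the number of libraries, and the depth of each is unknown.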
